A study of Arabidopsis thaliana with 24 samples.

Results

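The genes described here are 40 cysteine-rich receptor-like kinases (CRKs) of Arabidopsis thaliana, taken by gene identifier from a list of CRK loci out of 27416 genes in the count tables. They are CRK1 to CRK42 without CRK27 and CRK35. Of the 40, 35 had enough reads to be tested, and 5 did not: CRK1 had no count in any library, CRK25 had 26 counts over all libraries, CRK26 15, CRK32 9 and CRK33 1. The reads come from leaves 6, 7 and 8 of 2-week-old plants grown on soil at 22 °C in long days (16 h light, 8 h dark). All samples had 2 days of stratification at 4 °C. The labels call the tissue seedlings.

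There were 12 poly(A) RNA libraries in 6 groups of 2. The haploid group is labelled 1n and the diploid group 2n, and its count columns carry the name WT. DH6, DH9 and DH14 are doubled haploid lines, and sDH is a further group whose name the labels do not spell out. Table names give the background of 1n and 2n as Col. Beyond the stratification that all samples shared, no treatment, transgene or other allele is named for any group. The labels do not say which parent or inducer the haploids came from. The labels speak of biological replicates without saying whether these were separate plants, sowings or harvests, so p-values measure the spread between these libraries only. All groups from a DH line also stand for 1 line each, so a line and the history of its founder plant cannot be told apart.

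CRKs sit in the plasma membrane. Outside the cell they carry a pair of DUF26 domains, each with conserved cysteines, and inside the cell they carry a serine/threonine kinase domain. In leaves many CRK genes are known to be induced by salicylic acid, pathogens, ozone and other sources of extracellular reactive oxygen, and several CRK proteins act beside the receptors that recognise microbial patterns. The family grew by tandem duplication, mostly on chromosome 4. In the reference annotation 20 members (CRK5 to CRK24, AT4G23130 to AT4G23320) formed the AT4G23 array with 1 other protein-coding gene between them. The AT4G04 array held 5 members (CRK36 to CRK40, AT4G04490 to AT4G04570) with 1 other gene, and the AT4G11 array held 5 (CRK30 to CRK34, AT4G11460 to AT4G11530) with 3 others. CRK28 and CRK29 (AT4G21400 and AT4G21410) were neighbours on chromosome 4, as were CRK2 and CRK3 (AT1G70520 and AT1G70530) on chromosome 1. The remaining 6 members lay outside these arrays.

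Libraries held 16484799 to 22146896 counts on genes, and 1 count equalled 0.0449 to 0.0632 CPM (counts per 1000000) after normalisation. The leaf mesophyll markers summed to 85767 to 129675 CPM and the 13 root markers to 1.51 to 4.48 CPM, with 4 root markers at 0 in every library. Levels of the clock genes CCA1 and LHY, which peak around dawn in Arabidopsis, differed between groups and between the 1n libraries. CCA1 stood at 178 and 71.2 CPM in 1n, 1.03 and 1.02 in 2n, 18.1 and 15.4 in DH6, 22.3 and 23.2 in DH9, 88.2 and 99.96 in DH14, and 88.5 and 57.6 in sDH. The hour of harvest is not in the labels, and its part in the CRK levels was not tested. Fewer cells of a type and less RNA per cell cannot be told apart in these whole-leaf samples. CRKs of an array are similar in sequence and the rule for multi-mapping reads is not given in the sources used here, so counts of close neighbours may include shared reads.

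The CRKs as a family were high in 1n and 2n leaves and low in DH6 and sDH. Their summed level was 846 and 916 CPM in the 1n libraries and 742 and 875 in the 2n libraries. It was 343 and 359 CPM in DH6 and 293 and 315 in sDH, below every library of the other groups. DH9 with 573 and 509 CPM and DH14 with 669 and 670 CPM lay between these levels. Such a sum weighs abundant members most: in 2n CRK10 and CRK40 had means of 181 and 96.4 of 809 CPM. An F-test of any difference among the 6 groups called 32 of the 35 tested members, where 62% of all 19201 tested genes were called, and CRK3, CRK16 and CRK29 were the members not called. By group mean, sDH had the lowest level of 24 members, DH6 of 6 and 2n of 5, and 1n had the highest level of 18, 2n of 7, DH14 of 7 and DH9 of 3.

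**Figure D1:**
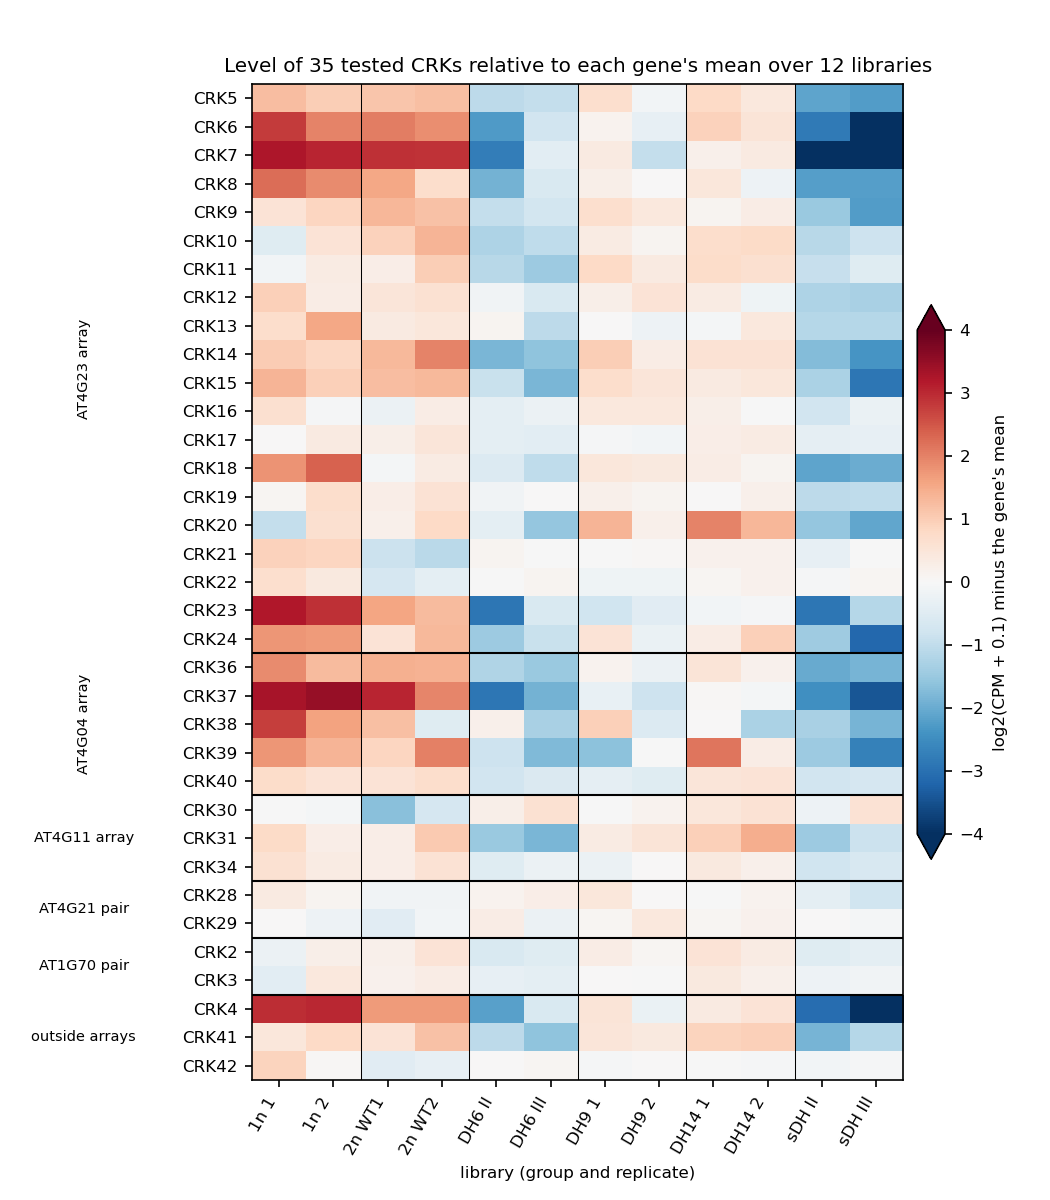
Heat map of the 35 tested CRKs (rows, in genome order within each array) in 12 libraries (columns). Colour is log2(CPM + 0.1) minus the gene's mean over the libraries. Most rows are red in 1n and 2n and blue in DH6 and sDH, while CRK21, CRK22 and CRK30 are blue in 2n.

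Against the haploid 1n, more CRKs were lower in DH6 and sDH than in the other groups, and none was called higher in any doubled haploid line or in sDH. In DH6, 28 of 35 members were lower, or 80%, against 24.5% of all genes, and 0 were higher against 22.6%. In sDH, 31 members were lower, or 88.6%, against 24.4% of all genes, and 0 were higher against 24.1%. In DH9, 14 members were lower, or 40%, against 14.8% of all genes, and 0 higher against 15.5%. In DH14, 11 members were lower, or 31.4%, against 11.8% of all genes, and 0 higher against 12.2%. A gene was called lower or higher at a Benjamini-Hochberg adjusted p under 0.05 in edgeR's quasi-likelihood test.

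The median log2 change of the tested CRKs against 1n was -1.55 in DH6, -2.13 in sDH, -0.60 in DH9 and -0.40 in DH14, and that of all genes lay between -0.01 and 0.01. At an unadjusted p under 0.05 in edgeR, 3 members were higher in DH14 and 0 in each of DH6, DH9 and sDH, and DESeq2 called 0 higher in each of the 4 comparisons. Leaving out 1n replicate 2 gave 2 higher members in DH9 and 4 in DH14. Without DH14 replicate 2, 7 members were lower in DH14. These 4 comparisons share the 1n libraries.

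The diploid 2n differed from 1n in both directions. In 2n, 3 members were called higher, or 8.57%, against 21% of all genes, and 7 lower, or 20%, against 19.9%, so the lower count was at the level of all genes. The higher members were CRK9, CRK10 and CRK14, and the lower ones CRK4, CRK18, CRK21, CRK22, CRK23, CRK30 and CRK42. Without 1n replicate 1, 1 was higher, without 1n replicate 2 there were 5, and without 2n WT2 there were 0. Only the calls of CRK18, CRK21 and CRK22 held under every alternative run.

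Against 2n, DH6 and sDH again had the most CRKs at lower levels. In DH6, 23 members were lower, or 65.7%, against 13.2% of all genes, and 3 higher against 11.9%. In sDH, 26 were lower, or 74.3%, against 15% of all genes, and 3 higher against 15.4%. In DH9, 12 were lower, or 34.3%, against 8.57% of all genes, and 2 higher against 8.66%. In DH14, 7 were lower, or 20%, against 13.6% of all genes, and 3 higher against 12.7%. The higher members were CRK21, CRK22 and CRK30, of which CRK22 was not called in DH9. The median log2 change of the members was -1.85 in DH6, -2.12 in sDH, -0.46 in DH9 and -0.13 in DH14, beside medians of all genes between 0.01 and 0.05.

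The sets lower than 2n in DH9 and in DH14 shrank whichever library of either group was left out, as did the calls over all genes: those lower in DH9 went from 1645 to between 489 and 983, and those lower in DH14 from 2604 to between 1151 and 1775. The count of CRKs lower in DH9 was 5 without 2n WT2 and 4 without DH9 replicate 2, and that in DH14 was 4 without 2n WT2, 4 without DH14 replicate 1 and 3 without DH14 replicate 2. The higher count in sDH was 1 without 2n WT1 and 1 without sDH III, and that in DH9 was 1 without 2n WT1 and 1 without either DH9 library.

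**Figure D2:**
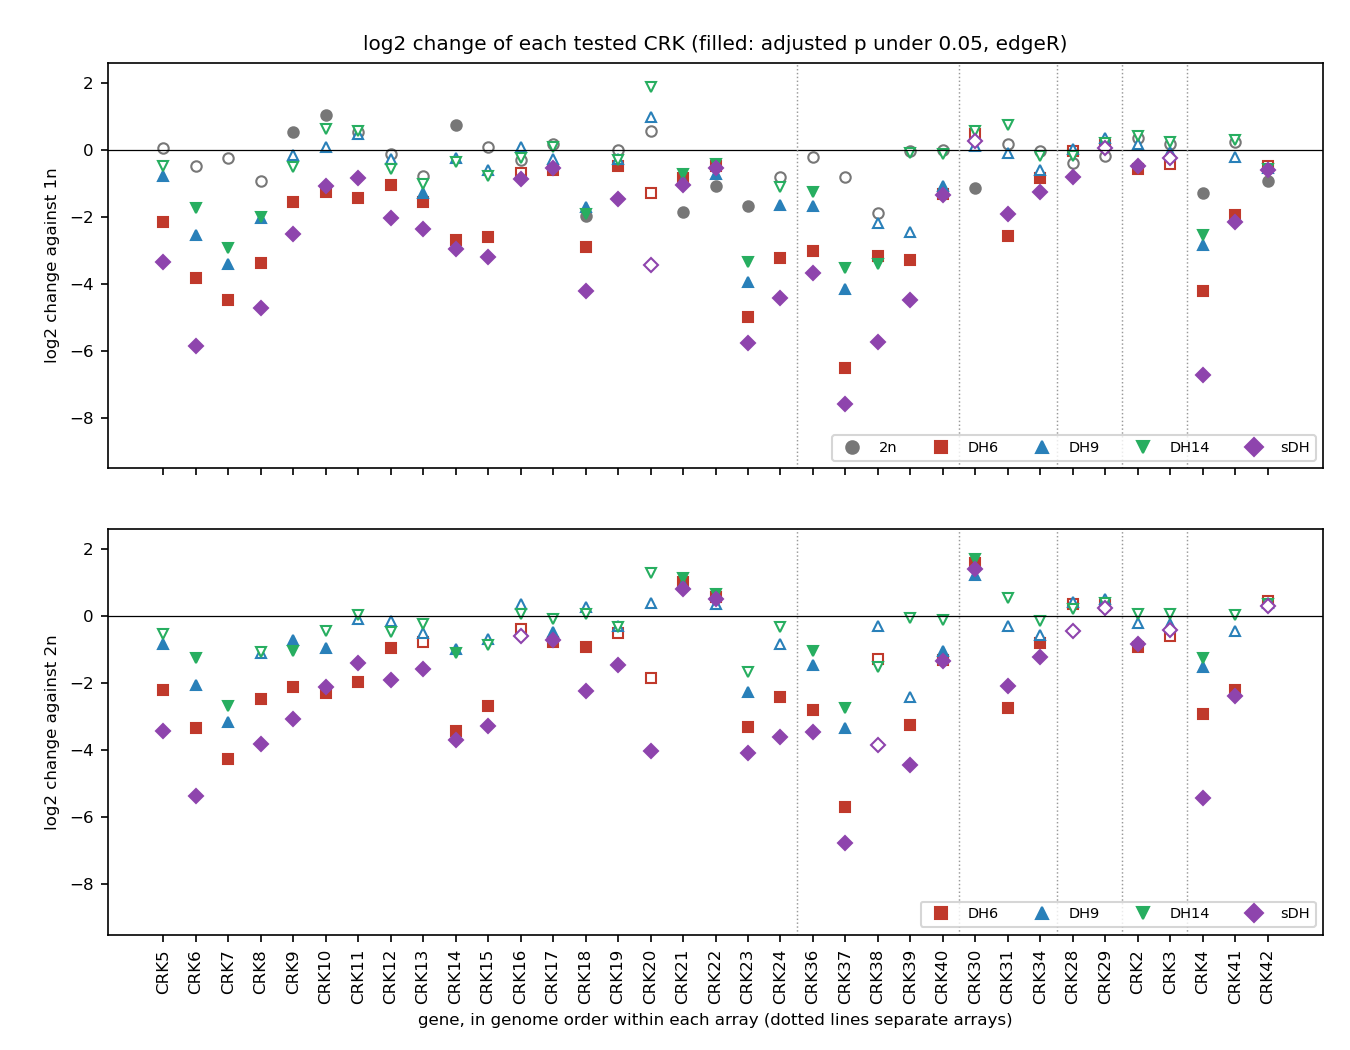
log2 change of each tested CRK against 1n (upper panel) and against 2n (lower panel), with 1 symbol per group and filled symbols where edgeR's adjusted p was under 0.05. CRK7 in sDH is not drawn because both sDH libraries had 0 counts; most filled symbols of DH6 and sDH lie below 0, and CRK21, CRK22 and CRK30 lie above 0 in the lower panel.

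CRK4 (AT3G45860), CRK5, CRK19 and CRK20 are known from overexpression, which sets off a hypersensitive-like cell death in leaves. CRK4 stood at 90.3 and 93.8 CPM in 1n, 37.6 and 37.5 in 2n, 2.47 and 7.54 in DH6, 16.6 and 9.53 in DH9, 14.8 and 16.9 in DH14, and 1.31 and 0.351 in sDH. The libraries of sDH, DH6, 2n and 1n did not overlap one another, and those of DH9 and DH14 overlapped at a level between DH6 and 2n. Against 1n its log2 change was -6.71 ± 0.52 (SE) in sDH and -4.21 ± 0.41 in DH6, with edgeR adjusted p of 4.4e-06 and 2.2e-05. It was also lower in DH9, at -2.82 ± 0.37, and in DH14, at -2.53 ± 0.37 on the log2 scale (edgeR adjusted p = 0.00032 and 0.00096). Its lower level in 2n, by -1.29 ± 0.35 (edgeR adjusted p = 0.012), lost the call without 2n WT1 or 2n WT2 and in DESeq2, where the largest adjusted p of the alternatives was 0.103.

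CRK5 (AT4G23130), which salicylic acid induces, was at 14.4 and 12.1 CPM in 1n and 13.5 and 14.3 in 2n. It was at 2.92 and 3.13 CPM in DH6, 9.87 and 5.73 in DH9, 10.8 and 8.27 in DH14, and 1.35 and 1.23 in sDH. All libraries of the DH lines and sDH lay below those of 1n and 2n. Against 1n the log2 change was -2.13 ± 0.25 in DH6 and -3.35 ± 0.28 in sDH (edgeR adjusted p = 6.2e-05 and 7.1e-06). In DH9 it was -0.77 ± 0.23 (edgeR adjusted p = 0.026), a call lost without 1n replicate 1, without DH9 replicate 2 and with only the 4 libraries fitted (adjusted p up to 0.194).

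CRK20 (AT4G23280), whose loss is known to lower growth of Pseudomonas in leaves, had few reads. It had 2 and 9 counts in 1n, 8 and 12 in 2n, 5 and 1 in DH6, 18 and 8 in DH9, 30 and 19 in DH14, and 1 and 0 in sDH. The sDH counts lay below those of 1n, 2n, DH9 and DH14, and DH6 shared the count of 1. In no comparison against 1n was CRK20 called, with edgeR adjusted p of 0.055 in sDH and 0.091 in DH14. DH14 and sDH differed directly: the ratio was 48.7, with a 95% interval of counting error alone from 8.34 to 1963 (edgeR adjusted p = 0.0048).

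CRK6 (AT4G23140) and CRK7 (AT4G23150) are neighbours known for roles in the response to extracellular superoxide and ozone, and CRK6 overexpression also raises responses to microbial patterns. CRK6 was at 66.0 and 37.8 CPM in 1n, 39.4 and 34.7 in 2n, 1.89 and 5.55 in DH6, 10.5 and 7.60 in DH9, 17.9 and 13.4 in DH14, and 1.26 and 0.468 in sDH. The libraries of 1n and 2n overlapped and lay above all others. Against 1n its log2 change was -5.84 ± 0.51 in sDH, -3.81 ± 0.42 in DH6, -2.52 ± 0.38 in DH9 and -1.73 ± 0.36 in DH14 (edgeR adjusted p = 9.4e-06, 4.3e-05, 0.00071 and 0.0066). The last call was lost without DH14 replicate 2, with an adjusted p of 0.0703.

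CRK7 had 341 and 285 counts in 1n and 337 and 304 in 2n. It had 5 and 32 counts in DH6, 49 and 21 in DH9, 46 and 53 in DH14, and 0 in both sDH libraries. The 1n and 2n libraries thus lay far above the rest, and no read of CRK7 was seen in sDH. Set against a floor of 3 counts over the sDH group, CRK7 was at least 249-fold higher in 1n than in sDH and at least 211-fold higher in 2n (edgeR adjusted p = 2.2e-05 and 4.8e-05). Against 1n the log2 change was -4.48 ± 0.52 in DH6, -3.39 ± 0.48 in DH9 and -2.92 ± 0.46 in DH14 (edgeR adjusted p = 9.6e-05, 0.00065 and 0.0020).

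**Figure D3:**
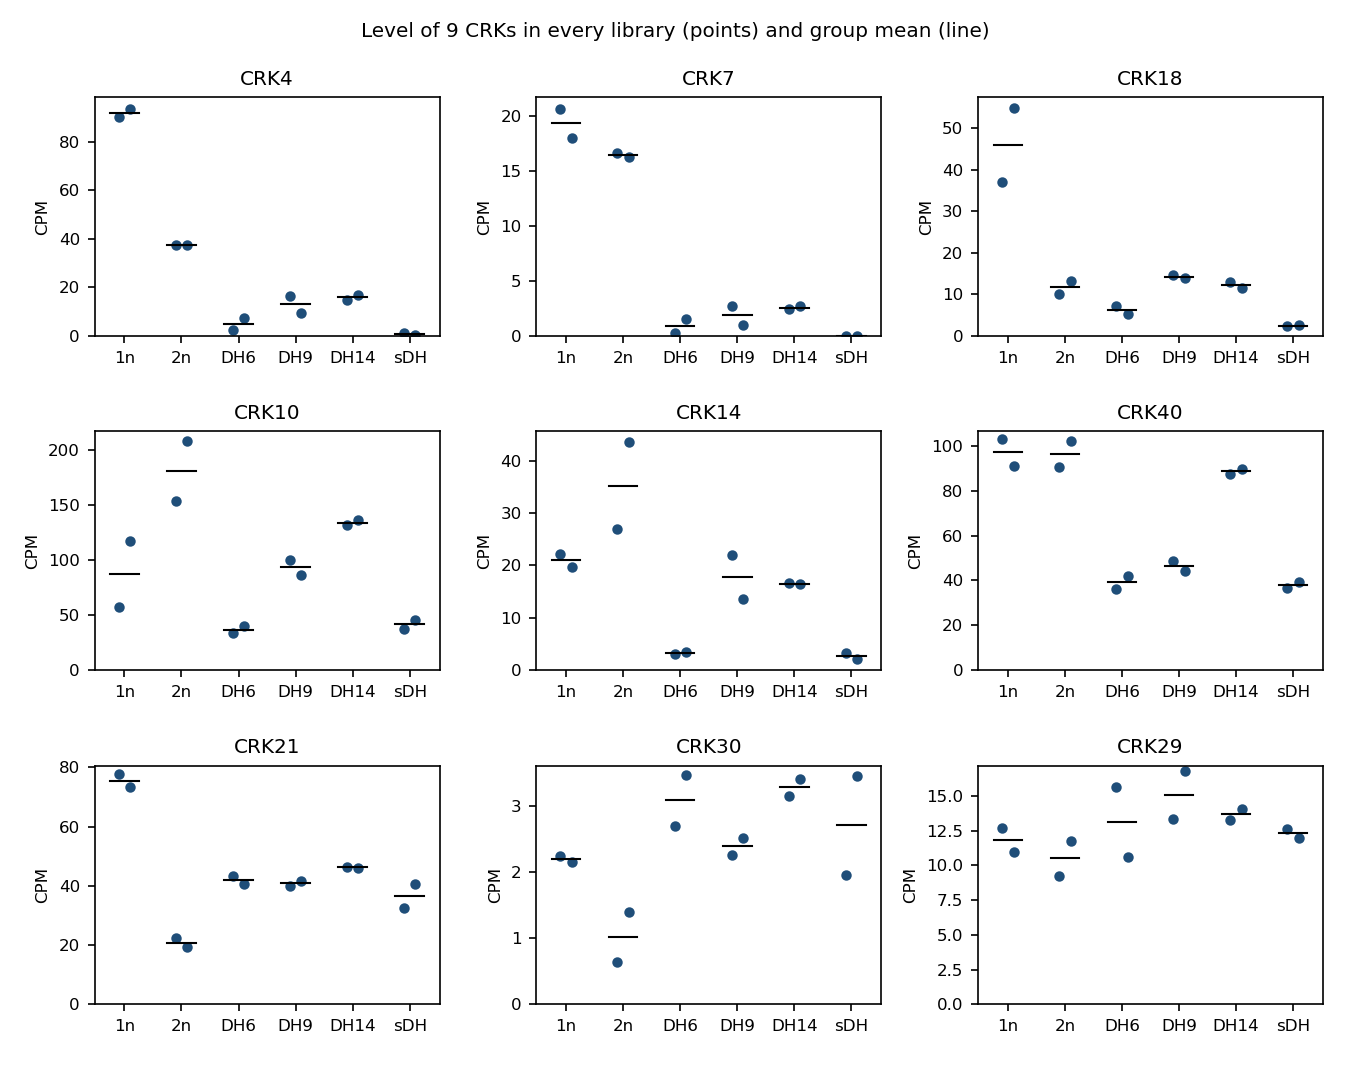
CPM of 9 CRKs in every library (points) with the group mean (line), each panel from 0. CRK4 and CRK7 are near 0 in sDH, CRK40 is low in DH6, DH9 and sDH but not in DH14, CRK21 and CRK30 are lowest in 2n, and the libraries of CRK29 overlap across most groups.

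CRK2, CRK28 and CRK36 are members with known partners in immune signalling at the membrane. CRK2 (AT1G70520) binds and phosphorylates the NADPH oxidase RBOHD. It was at 27.9 and 38.8 CPM in 1n, 37.5 and 48.2 in 2n, 21.7 and 23.3 in DH6, 40.4 and 34.5 in DH9, 47.8 and 41.1 in DH14, and 23.3 and 24.8 in sDH. DH6 and sDH lay below all other libraries, by less than for CRK4 to CRK7. Its log2 change against 2n was -0.93 ± 0.17 in DH6 and -0.83 ± 0.17 in sDH (edgeR adjusted p = 0.0022 and 0.0034). Against 1n, whose libraries lay farther apart, it was -0.57 ± 0.17 and -0.47 ± 0.17 (edgeR adjusted p = 0.017 and 0.039). Both calls against 1n were lost with only 4 libraries fitted, without 1n replicate 2 and without either library of DH6 or sDH (adjusted p up to 0.157 and 0.329). Its neighbour CRK3 was not called against 1n or 2n in any group.

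CRK28 (AT4G21400), which associates with the receptor FLS2 and its co-receptor BAK1, was called against 1n in sDH alone. It was at 10.2 and 8.65 CPM in 1n, 7.24 and 7.22 in 2n, 8.94 and 9.77 in DH6, 11.1 and 8.20 in DH9, 7.93 and 8.83 in DH14, and 6.07 and 4.62 in sDH. The sDH libraries were the lowest and those of DH6 lay within the range of 1n. Against 1n the log2 change was -0.81 ± 0.19 in sDH (edgeR adjusted p = 0.0048) and -0.01 ± 0.18 in DH6 (edgeR adjusted p = 0.96). CRK29 was called in no comparison, with group means between 10.5 and 15.1 CPM.

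CRK36 (AT4G04490) associates with the receptor-like cytoplasmic kinase BIK1 and promotes pattern-triggered responses. It was at 14.6 and 9.47 CPM in 1n, 10.5 and 10.2 in 2n, 1.62 and 1.33 in DH6, 4.28 and 3.26 in DH9, 5.62 and 4.41 in DH14, and 0.886 and 0.995 in sDH. The 4 lower groups overlapped neither 1n nor 2n. It fell against 1n by 3.68 ± 0.28 in sDH, 3.02 ± 0.26 in DH6, 1.68 ± 0.24 in DH9 and 1.26 ± 0.23 in DH14 on the log2 scale (edgeR adjusted p = 4.4e-06, 1.1e-05, 0.00047 and 0.0034), and each of these calls held under every alternative run.

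CRK13 (AT4G23210) overexpression is known to raise salicylic acid and resistance to Pseudomonas. It was at 12.1 and 21.4 CPM in 1n, 9.46 and 10.01 in 2n, 7.95 and 3.46 in DH6, 7.41 and 6.27 in DH9, 6.88 and 9.79 in DH14, and 3.22 and 3.28 in sDH. The 1n libraries were the highest and the sDH libraries the lowest. The change against 1n was -2.36 ± 0.37 in sDH (edgeR adjusted p = 0.00040). In DH6, whose libraries lay far apart, it was -1.55 ± 0.35 (edgeR adjusted p = 0.0039), a call lost with only the 4 libraries fitted (adjusted p = 0.0557).

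CRK9, CRK10 and CRK14 of the AT4G23 array were called higher in 2n and lower in DH6 and sDH than in 1n. CRK10 (AT4G23180), for which a gain-of-function allele with active defence is known, was at 57.6 and 118 CPM in 1n, 154 and 209 in 2n, 34.0 and 39.9 in DH6, 101 and 86.9 in DH9, 132 and 136 in DH14, and 37.7 and 45.5 in sDH. The 2n libraries were the highest, and the 1n libraries spanned those of DH9. Its log2 change against 1n was 1.05 ± 0.26 in 2n, -1.25 ± 0.27 in DH6 and -1.08 ± 0.27 in sDH (edgeR adjusted p = 0.0086, 0.0030 and 0.0066). The calls in 2n and sDH were lost under some alternatives: both with 4 libraries fitted, the first without 2n WT2, and the second without 1n replicate 2 or sDH II (adjusted p up to 0.0809 and 0.0595). Against 2n the log2 change was -2.29 ± 0.27 in DH6 and -2.12 ± 0.27 in sDH (edgeR adjusted p = 0.00016 and 0.00020).

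CRK14 (AT4G23220) was at 22.2 and 19.8 CPM in 1n, 26.95 and 43.5 in 2n, 3.01 and 3.51 in DH6, 21.9 and 13.5 in DH9, 16.6 and 16.4 in DH14, and 3.27 and 2.05 in sDH. CRK9 (AT4G23170) was at 31.4 and 39.1 CPM in 1n, 54.0 and 49.2 in 2n, 11.1 and 13.0 in DH6, 34.4 and 29.2 in DH9, 23.3 and 26.7 in DH14, and 7.74 and 4.51 in sDH. For both genes DH6 and sDH lay below every other library. In 2n the log2 change against 1n was 0.74 ± 0.25 for CRK14 and 0.55 ± 0.19 for CRK9 (edgeR adjusted p = 0.034 and 0.035). Both calls were lost without 1n replicate 1, without 2n WT2 and with only the 4 libraries fitted, that of CRK14 also without 1n replicate 2 and that of CRK9 without 2n WT1 (adjusted p up to 0.329 and 0.143). In sDH the change against 1n was -2.96 ± 0.31 for CRK14 and -2.50 ± 0.21 for CRK9 (edgeR adjusted p = 2.6e-05 and 7.7e-06).

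For CRK18, CRK21 and CRK22 of the same array, both 1n libraries lay above every library of the other groups, 2n included. CRK18 (AT4G23260) was at 37.0 and 54.8 CPM in 1n, 10.003 and 13.3 in 2n, 7.19 and 5.22 in DH6, 14.6 and 13.8 in DH9, 13.1 and 11.5 in DH14, and 2.38 and 2.63 in sDH. The highest library outside 1n was DH9 replicate 1 at 14.6 CPM. Its log2 change against 1n was -4.20 ± 0.24 in sDH, -2.88 ± 0.22 in DH6, -1.98 ± 0.21 in 2n, -1.90 ± 0.20 in DH14 and -1.69 ± 0.20 in DH9, with edgeR adjusted p between 1.3e-06 and 0.00018, and each call held under every alternative run.

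CRK21 (AT4G23290) had its lowest levels in 2n, unlike most of the array. It was at 77.7 and 73.3 CPM in 1n, 22.5 and 19.2 in 2n, 43.5 and 40.5 in DH6, 39.9 and 41.8 in DH9, 46.3 and 46.2 in DH14, and 32.6 and 40.5 in sDH. The DH lines and sDH thus lay between 2n and 1n with no overlap with either. The change against 1n was -1.86 ± 0.12 in 2n (edgeR adjusted p = 1.3e-06). Against 2n it was 1.15 ± 0.12 in DH14, 1.01 ± 0.12 in DH6, 0.97 ± 0.12 in DH9 and 0.81 ± 0.12 in sDH (edgeR adjusted p = 8.2e-05, 0.00014, 0.00053 and 0.00049), and these calls held under every alternative run.

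Its neighbour CRK22 (AT4G23300) was at 48.9 and 40.4 CPM in 1n, 19.5 and 23.4 in 2n, and between 27.2 and 34.9 in every library of the DH lines and sDH. Its change against 1n was -1.06 ± 0.12 in 2n (edgeR adjusted p = 5.9e-05), -0.71 ± 0.12 in DH9, -0.53 ± 0.12 in sDH, -0.48 ± 0.12 in DH6 and -0.40 ± 0.12 in DH14 (edgeR adjusted p = 0.0014, 0.0037, 0.0064 and 0.030 for these 4). The call in DH6 was lost without DH6 II (adjusted p = 0.0564). The call in DH14 was lost with 4 libraries fitted, without 1n replicate 1, without either DH14 library and with the replicate number as a block (adjusted p up to 0.166). CRK30 (AT4G11460), the first member of the AT4G11 array, also had its lowest levels in 2n, with 13 and 26 counts, beside 37 and 34 in 1n, 60 and 73 in DH6, 41 and 51 in DH9, 60 and 67 in DH14, and 42 and 59 in sDH. Against 2n it was higher by 1.69 ± 0.37 in DH14, 1.60 ± 0.37 in DH6, 1.41 ± 0.38 in sDH and 1.24 ± 0.38 in DH9 on the log2 scale (edgeR adjusted p = 0.0075, 0.0097, 0.017 and 0.048). Each of these calls was lost without 2n WT1, with an adjusted p of up to 0.0644, 0.0717, 0.138 and 0.259 over the alternatives.

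The rest of the AT4G23 array, as far as called, stood lower in DH6 and sDH. Of its 20 members, all of them tested, 18 were lower in DH6, 19 in sDH, 10 in DH9 and 7 in DH14 against 1n, where 24.5%, 24.4%, 14.8% and 11.8% of all genes were lower. In 2n 3 were higher and 4 lower, near or below the 21% and 19.9% of all genes. CRK20 was the member not called lower in sDH, and CRK16 and CRK20 those not called in DH6. The members' log2 changes had medians of -1.55 in DH6, -2.73 in sDH, -0.65 in DH9 and -0.54 in DH14. CRK23 (AT4G23310) fell far, with 110 and 87 counts in 1n, 43 and 31 in 2n, 0 and 8 in DH6, 6 and 9 in DH9, 11 and 12 in DH14, and 0 and 4 in sDH. Its change against 1n was -5.77 ± 0.82 in sDH and -4.99 ± 0.73 in DH6 (edgeR adjusted p = 0.00020 and 0.00027). CRK17 (AT4G23250), in the middle of the array, fell by 0.54 ± 0.12 in sDH and 0.59 ± 0.12 in DH6 on the log2 scale (edgeR adjusted p = 0.0041 and 0.0025), so that neighbours in 1 array moved by unequal amounts. The summed level of the array was 501 and 574 CPM in 1n, 480 and 575 in 2n, 212 and 221 in DH6, 376 and 330 in DH9, 411 and 419 in DH14, and 172 and 188 in sDH.

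In the AT4G04 array all 5 members were lower than 1n in DH6 and in sDH, and 3 were lower in DH9 and 3 in DH14. Of all genes, 24.5% were lower in DH6, 24.4% in sDH, 14.8% in DH9 and 11.8% in DH14. In 2n no member of the array was called, and the smallest edgeR adjusted p was 0.091, for CRK37. CRK37 (AT4G04500) had 172 and 186 counts in 1n, 176 and 75 in 2n, 1 and 4 in DH6, 14 and 10 in DH9, 19 and 18 in DH14, and 2 and 0 in sDH. The ratio of 1n to sDH was 213, with a 95% interval of counting error alone from 58.6 to 1768 (edgeR adjusted p = 8.7e-06), and the log2 change in DH6 was -6.51 ± 0.57 (edgeR adjusted p = 1.2e-05). CRK38 (AT4G04510) had 39 and 16 counts in 1n, 15 and 3 in 2n, 7 and 1 in DH6, 11 and 3 in DH9, 5 and 1 in DH14, and 1 and 0 in sDH, with a ratio of 1n to sDH of 65.5 and an interval from 11.3 to 2634 (edgeR adjusted p = 0.0040). CRK38 libraries of a group lay far apart at these counts. Its change in DH14 against 1n, -3.39 ± 0.98 (edgeR adjusted p = 0.028), lost its call without 1n replicate 1, without either DH14 library and with 4 libraries fitted (adjusted p up to 0.182).

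CRK40 (AT4G04570), the last member of that array, separated DH9 from DH14. It was at 103 and 91.1 CPM in 1n, 90.6 and 102 in 2n, 36.3 and 42.0 in DH6, 48.8 and 44.3 in DH9, 87.6 and 89.9 in DH14, and 36.7 and 39.2 in sDH. DH14 stood just below 1n and 2n, and the libraries of DH6, DH9 and sDH lay at 48.8 CPM or below. Against 1n the log2 change was -1.06 ± 0.11 in DH9 and -0.13 ± 0.11 in DH14 (edgeR adjusted p = 6.7e-05 and 0.41). Tested directly, DH9 was lower than DH14 by 0.93 ± 0.11 on the log2 scale (edgeR adjusted p = 0.0012).

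**Figure D4:**
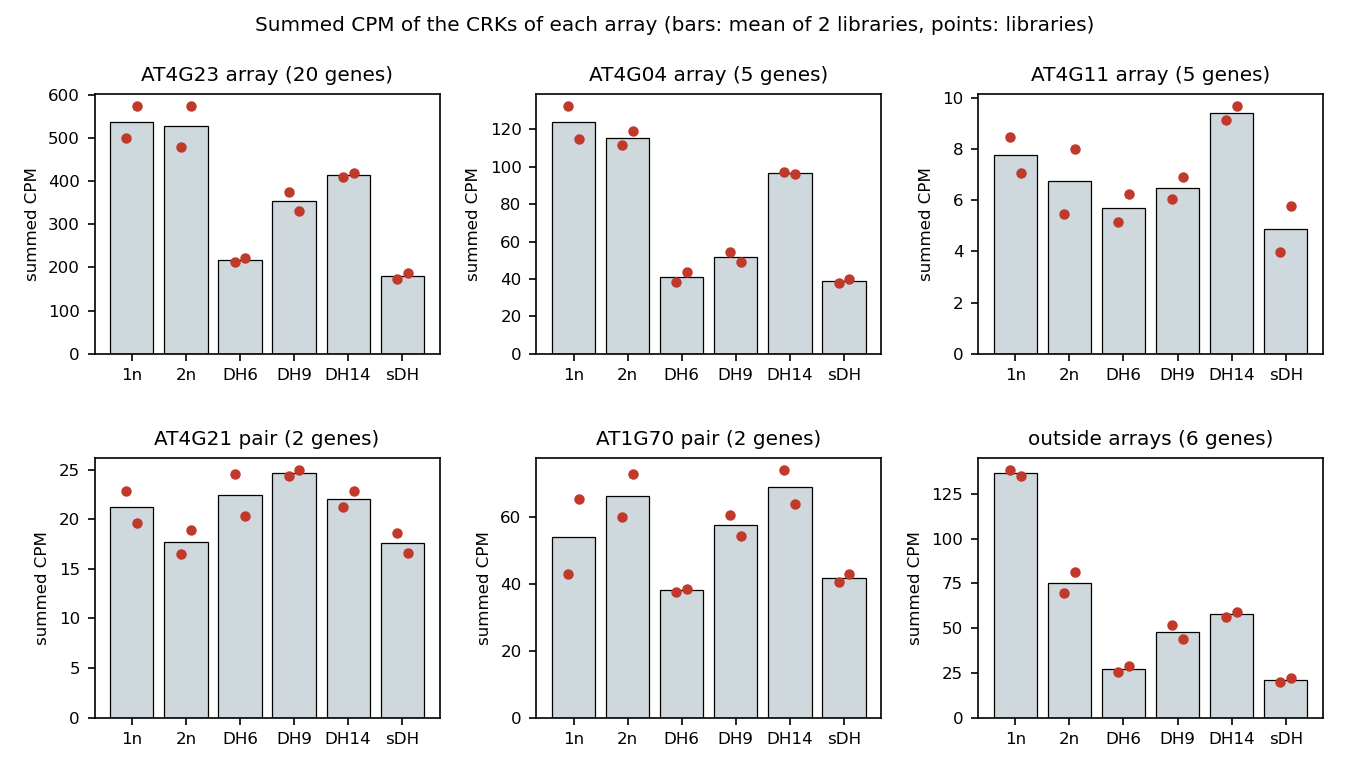
Summed CPM of the CRKs of each array and of the 6 members outside arrays, with bars from 0 at the mean of 2 libraries and a point per library. The AT4G23 and AT4G04 arrays are lowest in DH6 and sDH, the AT4G04 sum is also low in DH9, and the AT4G21 pair differs little between groups. CRK40 makes up most of the AT4G04 sum in every group. Its mean is 97.1 of 124 CPM in 1n, 46.6 of 51.7 in DH9 and 88.7 of 96.6 in DH14.

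In the AT4G11 array 3 of 5 members were tested. CRK31 and CRK34 were lower than 1n in DH6 and sDH and uncalled in DH9, DH14 and 2n. The call of CRK34 in DH6 was lost without 1n replicate 1, without DH6 II and with 4 libraries fitted (adjusted p up to 0.0786), and that of CRK31 in sDH without sDH II (adjusted p = 0.0724). The array summed to 8.48 and 7.07 CPM in 1n, 5.47 and 8.03 in 2n, 5.17 and 6.26 in DH6, 6.03 and 6.91 in DH9, 9.14 and 9.69 in DH14, and 3.97 and 5.79 in sDH. Outside the arrays CRK41 (AT4G00970) was at 18.9 and 24.4 CPM in 1n, 20.3 and 31.5 in 2n, 6.74 and 4.46 in DH6, 19.6 and 18.2 in DH9, 26.0 and 26.99 in DH14, and 3.73 and 6.26 in sDH. Its changes against 1n were -1.95 ± 0.27 in DH6 and -2.13 ± 0.28 in sDH (edgeR adjusted p = 0.00020 and 0.00012). CRK42 (AT5G40380) was at 29.1 and 16.2 CPM in 1n and between 11.4 and 16.6 in every other library. It was called lower than 1n in 2n, by -0.93 ± 0.21, and in sDH, by -0.61 ± 0.20 (edgeR adjusted p = 0.0046 and 0.029). The first call was lost with 4 libraries fitted (adjusted p = 0.0652), and the second with 4 libraries fitted, without 1n replicate 1 and without either sDH library (adjusted p up to 0.458).

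The 3 doubled haploid lines and sDH were also compared with each other. DH9 and DH14 differed at 1 CRK, CRK40, where 3.1% of all genes were called. DH6 was lower than DH9 at 12 members, or 34.3%, and lower than DH14 at 21, or 60%. Of all 19201 genes, 16.4% and 26.8% differed in either direction, with 1791 and 2708 lower in DH6. sDH was lower than DH9 at 22 members, or 62.9%, and lower than DH14 at 27, or 77.1%. Of all genes, 26.5% and 28% differed in either direction, with 2585 and 2721 lower in sDH. sDH was lower than DH6 at 7 members, or 20%, namely CRK4, CRK5, CRK7, CRK9, CRK18, CRK19 and CRK28. There 7.33% of all genes differed in either direction, with 553 lower in sDH. No member was called in the opposite direction in these 6 comparisons by edgeR, also at an unadjusted p under 0.05, or by DESeq2.

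The count between sDH and DH6 shrank whichever library was left out, as did that of all genes lower in sDH, which went from 553 to between 107 and 174. The count of CRKs was 4 without DH6 II, 1 without DH6 III, 2 without sDH II and 0 without sDH III, and none of the 7 calls held under every alternative. The count between DH6 and DH9 was 7 and that between sDH and DH9 was 13 without DH9 replicate 1. Among the calls that held under every alternative, CRK14 (AT4G23220) was lower in DH6 than in DH9 by 2.44 ± 0.30 and lower than in DH14 by 2.34 ± 0.30 on the log2 scale (edgeR adjusted p = 0.00087 and 0.00043). CRK9 was lower in sDH than in DH9 by 2.36 ± 0.21 and than in DH14 by 2.01 ± 0.21 (edgeR adjusted p = 5.4e-05 and 0.00011).

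Other genes named or grouped with the CRKs were read from a further list. CRK45 (AT4G11890) was at 49.9 and 36.4 CPM in 1n, 41.4 and 35.4 in 2n, 2.20 and 3.22 in DH6, 10.2 and 6.96 in DH9, 12.1 and 9.03 in DH14, and 2.19 and 1.87 in sDH. Against 1n its log2 change was -3.99 in DH6 and -4.40 in sDH (edgeR adjusted p = 2.87e-06 and 1.61e-06). All 3 tested genes of this list were lower than 1n in DH6 and in sDH, 1 in DH9 and 1 in DH14. Of all genes, 24.5%, 24.4%, 14.8% and 11.8% were lower in DH6, sDH, DH9 and DH14. In 2n 1 gene of the list was higher and 1 lower, where 21% of all genes were higher and 19.9% lower. Of 7 tested plasmodesmata-located proteins, which carry DUF26 domains without a kinase, 1 was higher and 1 lower than 1n in DH6, and likewise in sDH. Of all genes, 22.6% were higher and 24.5% lower in DH6, and 24.1% and 24.4% in sDH, and the difference between these proteins and the CRKs was not tested. The higher one was PDLP3, by 0.89 in DH6 and 0.59 in sDH on the log2 scale (edgeR adjusted p = 5.07e-05 and 0.000625), and the lower one HWI1 (PDLP5), a plasmodesmal callose regulator induced by salicylic acid, at -1.58 and -2.57 (edgeR adjusted p = 0.00628 and 0.000556). The wall-associated kinases, a different family that binds pectin, had 3 tested members, all lower than 1n in DH6 and in sDH. Of these, 1 was lower in DH9 and 1 in DH14, with the shares of all genes as above. In 2n none was called. WAK1 was at 201 and 141 CPM in 1n and 19.3 and 5.44 in sDH.

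Genes of the salicylic acid pathway, which is known to induce many CRKs, were low in the same groups. Of 17 tested, 17 were lower than 1n in DH6, 17 in sDH, 10 in DH9 and 9 in DH14, where 24.5%, 24.4%, 14.8% and 11.8% of all genes were lower. In 2n 4 were higher and 2 lower, where 21% of all genes were higher and 19.9% lower, so the 2n counts were near or below those shares. Their summed level was 1058 and 1629 CPM in 1n, 1359 and 1171 in 2n, 180 and 245 in DH6, 417 and 370 in DH9, 481 and 447 in DH14, and 165 and 201 in sDH. PAD4, a lipase-like regulator upstream of salicylic acid, changed by -2.17 in DH6 and -3.34 in sDH on the log2 scale against 1n (edgeR adjusted p = 8.25e-06 and 1.26e-06), and EDS16, the salicylic acid synthesis enzyme isochorismate synthase, by -1.69 in DH6 (edgeR adjusted p = 7.16e-06). Of 28 genes of cell-surface immune signalling, 20 were lower than 1n in DH6, where 24.5% of all genes were lower. In sDH 18 were lower and 1 higher, where 24.4% of all genes were lower and 24.1% higher. In DH9 4 were lower and 2 higher, where 14.8% of all genes were lower and 15.5% higher. In DH14 3 were lower and 1 higher, where 11.8% of all genes were lower and 12.2% higher. The lower counts in DH9 and DH14 were near the shares of all genes, and the higher counts were below them. In 2n 12 were higher and 3 lower, where 21% of all genes were higher and 19.9% lower. SOBIR1, a co-receptor of receptor-like proteins, changed by -2.45 in DH6 and -2.23 in sDH (edgeR adjusted p = 7.26e-06 and 8.7e-06).

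Of 9 tested senescence genes, 8 were lower than 1n in DH6, 6 in sDH, 4 in DH9 and 2 in DH14. Of all genes, 24.5%, 24.4%, 14.8% and 11.8% were lower in these groups. In DH14 1 senescence gene was higher, where 12.2% of all genes were higher. In 2n 1 was higher and 3 lower, where 21% of all genes were higher and 19.9% lower. The 10 senescence genes summed to 174 and 243 CPM in 1n, 209 and 236 in 2n, 86.3 and 81.8 in DH6, 145 and 131 in DH9, 207 and 181 in DH14, and 84.5 and 81.0 in sDH, with 1 of them at 0 in every library. ACD1, SAG21 and WRKY53 made up most of the sum. NAP stood at 5.15 and 6.69 CPM in 1n, 2.46 and 0.642 in 2n, and 0.135 and 0.190 in DH6. It stood at 2.47 and 2.42 CPM in DH9, 6.14 and 7.15 in DH14, and 5.83 and 5.79 in sDH. Guard cell markers summed to between 67.1 and 101 CPM in all libraries, lowest in 2n and sDH. The part of leaf age, of salicylic acid and of cell makeup in the CRK levels was not tested.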

How the data were processed

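RNA of 12 libraries in 6 groups of 2 was analysed; the 12 DNA methylation samples and the transposable element tables were not analysed here. The authors deposited raw counts per gene in 5 tables. Per the submitters' processing notes the tools were HISAT2, Subread and DESeq2 and the build TAIR10; no version, strand setting or multi-mapping rule is given in the sources used here. The 1n columns hold the same counts in the tables, which were joined on them; 22 of 40 columns were not used, and the sDH table holds the first 1n column in both places. Columns named WT were taken as 2n, the group left for them, and DH6 and sDH libraries keep their numerals II and III. The members, gene lists and tests were chosen with earlier results of these data known.

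The deposited counts were filtered with filterByExpr (minimum count 10, minimum total 15), leaving 19201 genes, scaled by TMM and fitted with edgeR 4.0.16 (R 4.3.3, limma 3.58.1) on all 12 libraries with a mean per group and 6 residual degrees of freedom. The quasi-likelihood test was adjusted by Benjamini-Hochberg over all genes tested. Levels are CPM on TMM library sizes, and ± after a log2 change is its standard error. Intervals and the floor of 3 counts cover counting error only. The fit was tested on simulated data. Alternatives were DESeq2 1.42.0, its size factors, no filter, fits of 4 libraries, a replicate block and leaving out each library.

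Values in every library are given for members with the 2 highest or lowest changes per comparison among called members without overlap, members called both ways against 1n, and CRK2, CRK5, CRK6, CRK10, CRK13, CRK20, CRK28 and CRK36; CRK4, CRK22, CRK40, CRK41 and CRK42 were added after their values were seen. Up to 3 genes per list were named by smallest adjusted p. ACD1, SAG21 and WRKY53 were named by their part of the senescence sum. NAP, WAK1 and the clock genes were chosen after their values were seen. Of the identifiers, 26719 matched the reference table (TAIR10.1), all 40 members among them. Gene lengths were not used, so levels of different genes are set side by side only as parts of a summed CPM. The part of the naming rule on level per length could not be applied.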

Additional observations from a re-analysis of the deposited data

Results flagged for a closer look

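The direct tests between the 3 doubled haploid lines and sDH differed by pair. Each count is of the 35 tested CRKs called by edgeR's quasi-likelihood test at an adjusted p under 0.05. DH6 and DH9 differed at 12 members and DH6 and DH14 at 21, where 16.4% and 26.8% of all genes differed. DH9 and DH14 differed at 1, or 2.86%, where 3.1% of all genes differed. That count was at the level of all genes. sDH and DH6 differed at 7, sDH and DH9 at 22 and sDH and DH14 at 27. Of all genes, 7.33%, 26.5% and 28% differed in these pairs. For every called CRK the first group named was the lower one, and the causes were not tested.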

How the results depend on the processing

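The counts of CRKs lower than 1n or 2n in DH6 and sDH moved by less than 1.5 times under every alternative: 23 to 28 in DH6 and 25 to 31 in sDH against 1n, and 18 to 23 and 23 to 25 against 2n, when a library was left out. With 1 library left out, the ranges that moved further were 0 to 5 members higher in 2n against 1n, 0 to 2 higher in DH9 and 0 to 4 higher in DH14 against 1n, 7 to 12 lower in DH14 against 1n, 1 to 2 higher in DH9, 1 to 3 higher in sDH, 4 to 8 lower in DH9 and 3 to 5 lower in DH14 against 2n, 7 to 10 between DH6 and DH9, 0 to 4 between sDH and DH6 and 13 to 20 between sDH and DH9. A left-out library leaves a group with 1, assumed to vary like the others. The 1n libraries differed most from each other: log2 levels of the tested genes correlated at 0.975 in 1n. In the other groups they correlated at 0.988 to 0.993. With only the 4 libraries compared, 0 members were higher in 2n against 1n, 1 was higher in DH9 against 2n and 6 differed between DH9 and DH14. DESeq2 and its size factors each gave 1 higher in DH9 against 2n, and no filter gave 1 higher in DH14 against 1n. No call reversed. The 1n, DH9 and DH14 columns carry replicate numbers, but these share only a number: differences between replicates 1 and 2 correlated at -0.168, 0.122 and -0.0256 between groups over 19201 genes. A replicate block gave 15 members lower in DH9 and 10 in DH14 against 1n, and 1 between DH9 and DH14. Of the member calls, 821 kept and 231 lost their side of the threshold over left-out libraries, and 249 kept and 13 lost it in DESeq2. Depth limits members with few reads, such as CRK20, CRK38 and CRK39. In 2n against 1n, edgeR's unadjusted p under 0.05 gave 3 higher and 11 lower CRKs, and DESeq2 gave 3 and 6.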
